A study of Rattus norvegicus with 24 samples.

Results

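Fc receptors are the proteins through which cells bind the constant part of antibodies. The 8 rat genes described here were the receptors for IgG (Fcgr1a, Fcgr2a, Fcgr2b and Fcgr3a), the neonatal Fc receptor (Fcgrt), and the genes of the IgE receptors (Fcer1a, Fcer1g and Fcer2), chosen by gene name among 25885 gene names on the array. They were read by 12 of the array's 30367 probes. Their transcripts were followed in blood from 6 groups of rats, with 4 two-color arrays per group and RNA from a single rat on each array. All rats were male Sprague-Dawley animals of 8 weeks of age at the start, and each lived for 6 weeks on its diet. C-G0 rats ate a semi-synthetic diet, C-G1 rats the same diet with oat beta-glucan of high molecular weight, and C-G2 rats the diet with oat beta-glucan of low molecular weight, and these 3 groups received saline by the tail vein. LPS-G0, LPS-G1 and LPS-G2 rats ate the same 3 diets and were given E. coli lipopolysaccharide (LPS), 10 mg/kg, by the tail vein on 2 occasions, a model of enteritis that is systemic and not limited to the gut. The RNA came from blood, so fewer cells of a type and less RNA per cell cannot be told apart. LPS-G0 replicates 3 and 4 were labelled as LPS in their titles and as control in 1 further field, and they were kept as LPS-G0.

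IgG receptors of the activating kind carry or recruit an immunoreceptor tyrosine-based activation motif, which Src family kinases and Syk use to start phagocytosis, cytokine release or killing of antibody-coated targets. In Fcgr1a, the high-affinity receptor of monocytes and macrophages, and in Fcgr3a, the low-affinity receptor known as CD16, that motif lies on the common gamma chain encoded by Fcer1g, which also serves the high-affinity IgE receptor. Fcgr2b, in contrast, carries an inhibitory motif and recruits the phosphatase SHIP-1. Fcer1a encodes the IgE-binding chain found on basophils and mast cells, Fcer2 encodes CD23, the low-affinity IgE receptor of B cells, and Fcgrt encodes a receptor that protects IgG from breakdown and pairs with beta-2 microglobulin.

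The probes decide which transcript a value belongs to, so those on which the results turn are shown, 5′ to 3′ and 60 bases long, with positions on the rn4 assembly. The Fcgr3a probe named 1 RefSeq transcript and lay at chr13:86877181-86877240. The brightest Fcgr2b probe, at chr13:86815061-86815120, was listed for Fcgr2b and for its close relative Fcgr2al1, whereas the other one, at chr13:86809091-86809150, was listed for Fcgr2b alone. The Fcgr2a probe was likewise shared with Fcgr2al1, so its values belong to both genes. The printed Fcer1g probe, at chr13:87119755-87119814, is the less bright of a pair that gave nearly the same result, and the printed Fcer1a probe, at chr13:89431451-89431510, was at background throughout. Over the 66 pairs of member probes the longest run of bases in common was 9, so no probe was close to a copy of another. What part of each transcript a probe covers was not analysed here.
Fcgr3a: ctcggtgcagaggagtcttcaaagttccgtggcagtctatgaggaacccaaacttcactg
Fcgr2b, brightest probe: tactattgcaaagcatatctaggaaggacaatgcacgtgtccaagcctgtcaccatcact
Fcgr2b, other probe: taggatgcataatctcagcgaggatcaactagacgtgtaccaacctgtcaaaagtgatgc
Fcer1g, other probe: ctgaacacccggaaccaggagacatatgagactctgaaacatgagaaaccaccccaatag
Fcer1a, other probe: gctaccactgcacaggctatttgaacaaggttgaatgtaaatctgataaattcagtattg

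Each value was the log2 ratio of Cy3 over Cy5 signal, and the sample labels give Cy3 as the RNA of the rat and Cy5 as the common reference, a pool of blood RNA from all groups. The study's methods give the dyes the other way round, and read that way every sign here would turn. Over 7074 probes the Cy3 channel varied more between arrays of a group (median SD 0.353 against 0.195 in Cy5). Ratios of some arrays ran against each other (lowest r = -0.54 over 10676 probes, 11 of 276 pairs under -0.3), and the direction was kept as the labels give it. C-G0 replicate 1 stood apart, with a median absolute deviation from its group of 0.54 on the log2 scale, against 0.16 to 0.41 on the other 23 arrays. On that array all 8 Fc receptor probes that could be tested had their lowest ratio of the 24 arrays, as did 23.6% of 10676 probes tested. The differences from C-G0 described for single receptors are therefore given with and without it. C-G1 replicate 2 had the next highest deviation, 0.41. It held the lowest ratio of 25.9% and the highest of 20.4% of these probes, but the lowest of 0 of the 8 receptor probes.

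The receptors fell into those that blood expressed on nearly every array and those near or at background. Every probe of Fcgr1a, Fcgr2a and Fcer1g had a Cy3 signal well above background on each of the 24 arrays. Fcgr3a and the specific Fcgr2b probe missed only C-G0 replicate 1, while the brightest Fcgr2b probe was detected on all 24. Neither Fcer1a probe was well above background on any array. Ms4a2, the beta chain that joins Fcer1a in the receptor of basophils and mast cells, was not detected on any array either. Fcer2 was detected on 6 arrays and Fcgrt on 3. In each comparison 5 of the 8 genes could thus be tested, by 8 probes, and Fcgrt, Fcer1a and Fcer2 were left with values near or at background. As a check of the tissue, 10 of 10 erythroid, 9 of 10 platelet, 8 of 10 T cell, 7 of 10 NK cell, 6 of 10 monocyte and 5 of 10 neutrophil markers passed the same filter, with 5 of 9 B cell markers on the array. So did 4 of 10 basophil and mast cell markers (Hdc, Il3ra, Mcpt8 and Cma1) and 2 of 7 eosinophil markers. The missing signal of Fcer1a and Ms4a2 therefore does not show that basophils were absent from this blood.

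**Figure D1:**
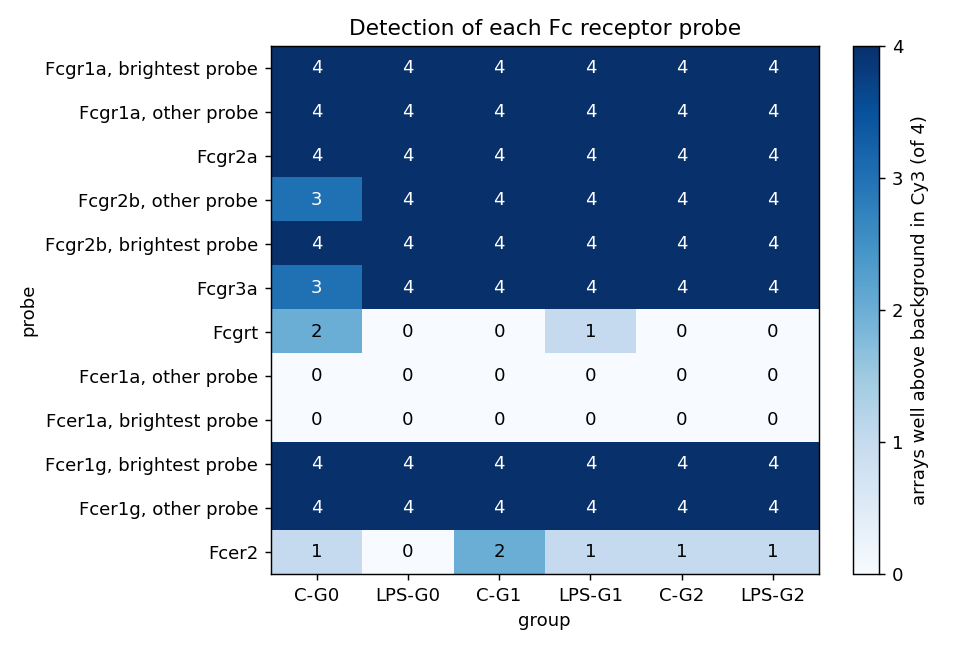
Number of arrays (of 4 per group) on which each of the 12 Fc receptor probes was well above background in Cy3; rows are probes, columns the 6 groups. Both Fcer1a probes stand at 0 in all groups, and Fcgrt and Fcer2 reach at most 2 of 4.

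No Fc receptor passed an adjusted p under 0.05 (limma, Benjamini-Hochberg over all probes tested) in any of 11 comparisons. The share of all probes called was itself near 0 in most of them. It was 0.0097% in LPS-G0 vs C-G0, 0.028% in C-G1 vs C-G0 and in C-G2 vs C-G0, 0.00934% in LPS-G1 vs C-G1 and 0.0187% for LPS over the 3 diets. It was 0% in LPS-G2 vs LPS-G0, LPS-G1 vs LPS-G2, LPS-G2 vs C-G2 and both contrasts of LPS responses between diets. Only LPS-G1 vs LPS-G0 had many calls, 8.93% of 10313 probes and 0.989% with at least a 2-fold change, and there too 0 of 5 receptors were called. That number depended on the model and on single arrays: 3 probes were called when the model held the 24 arrays, and 0 when replicate 1 or 4 of LPS-G0, or replicate 4 of LPS-G1, was left out. At an unadjusted p under 0.05, limma gave 1 receptor in LPS-G0 vs C-G0 (15.2% of all probes), 0 in LPS-G1 vs LPS-G0 (26.9%), 1 in LPS-G2 vs LPS-G0 (8.23%) and 1 in LPS-G1 vs LPS-G2 (6.68%). Among rats without LPS it gave 1 in C-G1 vs C-G0 (27.9%) and 2 in C-G2 vs C-G0 (13.3%). For LPS on the beta-glucan diets it gave 0 in LPS-G1 vs C-G1 (2.81%) and 1 in LPS-G2 vs C-G2 (1.09%). Over the 3 diets together LPS gave 0 (9.61%), and the LPS responses on G1 and G2 differed from that on G0 for 1 receptor each (3.01% and 5.57%). In the comparisons of LPS-G1 with LPS-G0, LPS-G2 and C-G1, the arrays of the groups overlapped for all 5 receptors by their brightest probe, whereas 21.9%, 6.65% and 2.73% of all probes did not overlap. The values that follow are therefore differences that did not survive the adjustment.

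Fcgr3a, the CD16 gene carried by monocytes and NK cells, had the widest range of log2 ratios among the 5 receptors tested, from -2.40 to 1.04. The lowest value belongs to C-G0 replicate 1, where the probe was not well above background, and without that array the range was -0.90 to 1.04. Its log2 ratios in C-G0 were -2.40, -0.47, -0.90 and -0.82 for replicates 1 to 4. In LPS-G0 they were -0.19, -0.08, -0.44 and 0.49. The LPS rats on the control diet all lay above the saline rats, and the groups did not overlap, as for 5.03% of probes in this comparison. The mean was -1.15 ± 0.85 in C-G0 and -0.05 ± 0.39 in LPS-G0 (SD, n = 4), a log2 difference of 1.09 (SE 0.36, adjusted p = 0.219 by limma), and an exact two-sided permutation test gave 0.0286, the smallest p that 4 against 4 arrays allow. Without C-G0 replicate 1 the difference was 0.67 (adjusted p = 0.138 by limma), in a comparison that then called 1136 of 10338 probes. The difference was 1.30, 0.46 and 1.31 within slides 1, 2 and 3.

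The same gene was also higher in both groups that ate beta-glucan without LPS. C-G1 rats had ratios of -0.14, 1.04, 0.33 and -0.02, and C-G2 rats 0.87, 0.39, -0.07 and 0.11. Every one of these 8 arrays lay above every C-G0 array, a lack of overlap shown by 7.04% of probes for C-G1 and 2.62% for C-G2. The log2 difference from C-G0 was 1.45 (SE 0.36, adjusted p = 0.104 by limma) for G1 and 1.47 (SE 0.36, adjusted p = 0.168) for G2. Within the 3 slides, which hold few arrays of each group, it ran from 0.81 to 1.58 for G1 and from 0.84 to 2.31 for G2. With no overlap these slide values could only be positive. Without C-G0 replicate 1 the differences from C-G0 were 1.03 (adjusted p = 0.450 by limma) and 1.06 (adjusted p = 0.260). All 3 comparisons share the C-G0 arrays. The highest C-G1 ratio, 1.04, came from replicate 2, the array with the second highest deviation. The other C-G1 arrays lay at -0.14 to 0.33, still above every C-G0 array. Another background correction, normexp with loess, brought the differences to 0.56 for LPS and 0.81 and 0.83 for the diets.

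With LPS the order of the diets was another one. LPS-G2 rats had the most uniform Fcgr3a ratios, -0.53, -0.73, -0.32 and -0.50, and all lay below the C-G2 rats, a lack of overlap shown by 1.07% of probes. LPS was thus accompanied by a log2 difference of -0.85 on the G2 diet (SE 0.36, adjusted p = 1.00 by limma, unadjusted 0.0273), against 1.09 on the control diet. On the G1 diet the LPS ratios were 0.78, -0.46, -0.57 and 0.41. Replicates 2 and 3 lay below all C-G1 rats and the others within their range, and the difference was -0.26 (adjusted p = 0.950). The contrast of the LPS response on G2 with that on G0 was -1.94 (SE 0.51, unadjusted p = 9e-04, adjusted p = 0.832), and that of G1 with G0 was -1.36 (SE 0.51, adjusted p = 0.999). Without C-G0 replicate 1 they were -1.52 (adjusted p = 0.403) and -0.94 (adjusted p = 0.893). Averaged over the diets the LPS difference was -0.01 (95% interval -0.43 to 0.42), and -0.14 without C-G0 replicate 1. In order of group means, C-G2 (0.33), C-G1 (0.30), LPS-G1 (0.04) and LPS-G0 (-0.05) came first, followed by LPS-G2 (-0.52) and C-G0 (-1.15). Neighbours in that order overlapped.

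**Figure D2:**
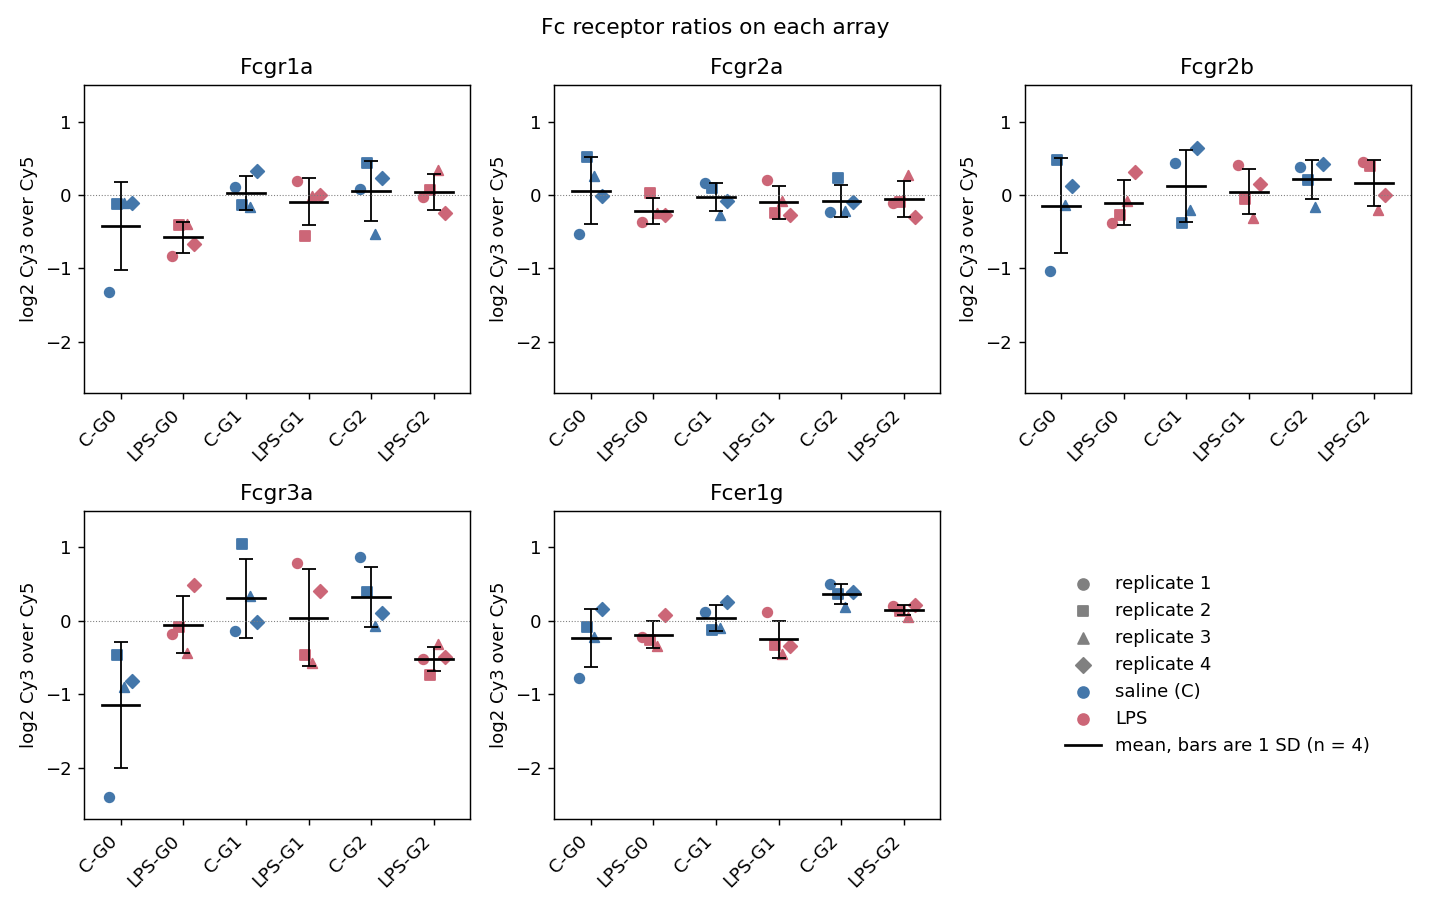
Log2 ratio of Cy3 (rat) over Cy5 (common reference) for the brightest probe of each of the 5 receptors tested, by group. Points are arrays, shaped by replicate and colored by saline or LPS, with the mean and 1 SD (n = 4); the lowest point of every panel is C-G0 replicate 1, and Fcgr3a spans the widest range, from -2.40 to 1.04.

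Fcer1g, the signalling gamma chain, was the steadiest of the receptor genes within groups, with a pooled SD of 0.23 on the log2 scale. The clearest difference lay between the rats without LPS. C-G0 ratios were -0.79, -0.09, -0.22 and 0.15, and C-G2 ratios 0.51, 0.37, 0.19 and 0.40. The C-G2 rats all lay above the C-G0 rats, as 2.62% of probes did not overlap in this comparison. The log2 difference was 0.60 (SE 0.17, adjusted p = 0.199 by limma, exact permutation p = 0.0286), and the other probe gave 0.60 as well (SE 0.16, adjusted p = 0.174). Without C-G0 replicate 1 it was 0.42 (adjusted p = 0.306). Within slides 1, 2 and 3 the brightest probe differed by 0.94, 0.58 and 0.14.

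LPS-G2 rats also kept Fcer1g ratios in a narrow band, 0.20, 0.13, 0.06 and 0.21. LPS-G1 rats had 0.12, -0.34, -0.45 and -0.35. The G1 rats lay lower except for replicate 1, by 0.40 on the log2 scale (SE 0.18, adjusted p = 0.679 by limma, exact permutation p = 0.0571), and the other probe gave -0.37. LPS on the control diet was accompanied by a difference of 0.05 (95% interval -0.35 to 0.44), and without C-G0 replicate 1 its sign turned, to -0.14 (adjusted p = 0.566 by limma).

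Fcgr1a, whose product binds monomeric IgG on monocytes, had its lowest group mean in LPS rats on the control diet with the brightest probe. The LPS-G0 ratios were -0.83, -0.40, -0.40 and -0.66 and the LPS-G2 ratios -0.03, 0.07, 0.35 and -0.24. The LPS-G2 rats all lay above, by 0.61 (SE 0.25, adjusted p = 0.597 by limma, exact permutation p = 0.0286), as 10.5% of probes did not overlap in this comparison. The other Fcgr1a probe gave 0.15 (SE 0.18), and the pair correlated at r = 0.65 over the 24 arrays, so the difference rests on 1 probe. LPS-G1 rats had ratios of 0.19, -0.55, -0.02 and 0.00, a difference from LPS-G0 of 0.48 (adjusted p = 0.227) with the brightest and 0.22 with the other probe. Against C-G0, with ratios of -1.32, -0.13, -0.11 and -0.11, LPS-G0 differed by -0.15 (adjusted p = 0.812). Without C-G0 replicate 1 that was -0.46 (adjusted p = 0.110).

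Fcgr2b, the inhibitory receptor, gave different pictures with its probes. With the probe specific to it, LPS-G0 ratios were -1.02, -0.97, 0.05 and -0.51, and LPS-G1 ratios -0.31, 0.25, 0.10 and 0.31. The groups overlapped through LPS-G0 replicate 3, and the difference was 0.70 (SE 0.29, adjusted p = 0.139 by limma, exact permutation p = 0.0571). The brighter probe shared with Fcgr2al1 gave 0.15 (SE 0.27, adjusted p = 0.727). For LPS-G2 against LPS-G0 the specific probe gave 0.61 (adjusted p = 0.597) and the shared probe 0.27. The 2 probes correlated at r = 0.51, against r = 0.94 for the pair of Fcer1g.

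Fcgr2a is an activating receptor of myeloid cells. Its group means lay between -0.22 in LPS-G0 and 0.06 in C-G0, and its log2 differences in the 8 comparisons of 2 groups lay between -0.28 and 0.16, with no unadjusted p under 0.05. For LPS-G0 vs C-G0 the difference was -0.28, with a 95% interval of -0.71 to 0.16. Without C-G0 replicate 1 it was -0.48 (adjusted p = 0.087 by limma).

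**Figure D3:**
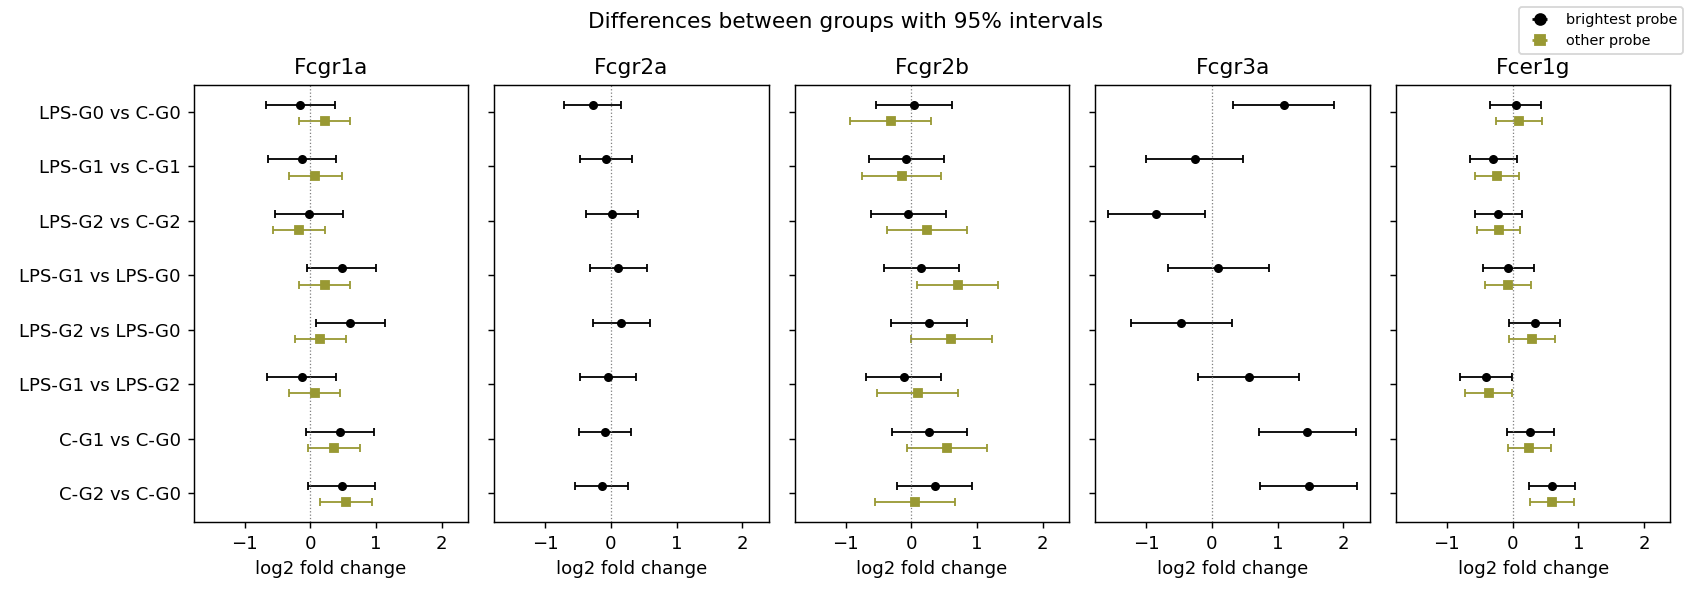
Log2 fold changes with 95% intervals from limma for the 5 receptors tested, in the 8 comparisons of 2 groups; black circles are the brightest probe and olive squares the other probe of a gene. Fcgr3a has the largest differences, 1.09, 1.45 and 1.47, all against C-G0, and the probes of Fcgr1a and Fcgr2b differ from each other.

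The dim receptors are given as ratios or signals. Fcer2 was not well above background on any LPS-G0 array and was so on only 1 array of LPS-G1, and no fold is given. Its log2 ratios were -1.30, -1.62, -0.71 and -1.21 in LPS-G0 and 0.04, 0.12, -0.77 and -0.13 in LPS-G1, which overlapped by 1 array each. Fcgrt was detected on 2 C-G0 arrays and 1 LPS-G1 array, its group means of the log2 ratio lay between -0.37 in LPS-G0 and 0.33 in LPS-G1, and no fold is given. The brighter Fcer1a probe had Cy3 signals of 10.3 to 53.7 across the 24 arrays, and its ratios in LPS-G1 (0.96, 1.78, 1.92 and 0.71) lay above those in LPS-G0 (-0.47, 0.30, 0.00 and -0.22), but the Cy3 signals were 15.3 to 52.4 and 11.6 to 46.0, not well above background on any of these arrays, and no fold is given. The other Fcer1a probe had overlapping ratios in these groups, -0.21 to 0.33 and -1.11 to 0.18. The study's supplement lists Fcer1a and Fcer2 among the genes it selected between LPS-G1 and LPS-G0 on these same arrays, so their pattern here is no independent evidence.

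The genes whose ratios were most like each receptor's from rat to rat differed between the receptors. Among 4406 other genes detected on all 24 arrays, those most like Fcgr1a were Tyrobp (r = 0.91), an adaptor with the same activation motif as the gamma chain, Igsf6 (r = 0.89) and Il17ra (r = 0.88). Within groups, after subtracting group means, the Tyrobp correlation was 0.90. Fcer1g was most like S100a11 (r = 0.85), Fgr (r = 0.84), a Src family kinase of myeloid cells, and Tlr13 (r = 0.79), a sensor of bacterial ribosomal RNA. Fcgr2b was most like Xbp1 (r = 0.79), Ly6c (r = 0.78) and Fcer1g itself (r = 0.74), Fcgr2a most like Iqgap1, Sh3bp2 and Shbg (all r = 0.82), and Fcgr3a most like Rpl10 (r = 0.84), Comtd1 (r = 0.78) and Dusp5 (r = 0.76). These are descriptions over 24 arrays that share the reference RNA and include C-G0 replicate 1. Without it the correlation of Fcgr3a with Rpl10 was 0.71 and that of Fcgr1a with Tyrobp 0.87.

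Marker levels moved with some of these values. Over 24 arrays, Fcgr1a followed the mean ratio of the 6 monocyte markers tested (Pearson r = 0.85, Spearman rank correlation 0.77, r = 0.83 within groups, 0.70 without the 2 arrays farthest out). Fcgr2b (r = 0.74), Fcgr2a (r = 0.65) and Fcer1g (r = 0.61) did so less closely, and without C-G0 replicate 1 at 0.61, 0.56 and 0.44. The mean monocyte marker ratio lay between -0.42 and -0.07 in LPS-G0 and between -0.14 and 0.25 in LPS-G2, with summed Cy3 signals of 39347 to 56215 and 49274 to 92296. Fcgr3a had r = 0.36 with the monocyte markers, which was -0.03 without C-G0 replicate 1, and r = 0.58 with the 7 NK cell markers, which was 0.29 without it. With the 10 erythroid markers it had r = -0.49, and -0.48 without that array. With the 5 B cell markers it had r = 0.08, and -0.35 without that array. Both were then larger in size than the value for the NK markers. The NK markers' mean ratio lay between 0.02 and 0.53 in LPS-G0 and between -0.85 and 0.24 in C-G0, with summed signals of 52961 to 92266 and 38286 to 119295. C-G0 replicate 1 had both the lowest ratio, -0.85, and the highest sum, 119295, so ratio and sum ran opposite ways there. The sums weigh the brightest marker most, Tbx21 for NK cells (mean log2 Cy3 15.6) and Lyz2 for monocytes (15.9). Of the defining markers, Cd163 of monocytes was not well above background on any array and every NK marker was so on at least 1. Fcgr1a followed the neutrophil markers at r = 0.53. Without C-G0 replicate 1 this was 0.74, close to the 0.77 of Fcgr1a with the monocyte markers on those arrays. Fcer1g followed the neutrophil markers at r = 0.35. On the arrays without C-G0 replicate 1 this was 0.48, against 0.44 with the monocyte markers. Fcgr2b had r = 0.14 with the 9 platelet markers, and 0.54 without that array, against 0.61 with the monocyte markers. The neutrophil markers had a mean ratio of -0.65 to -0.14 in LPS-G0 and of -0.20 to 0.74 in LPS-G2. The part of these cells in the receptors' values was not tested.

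**Figure D4:**
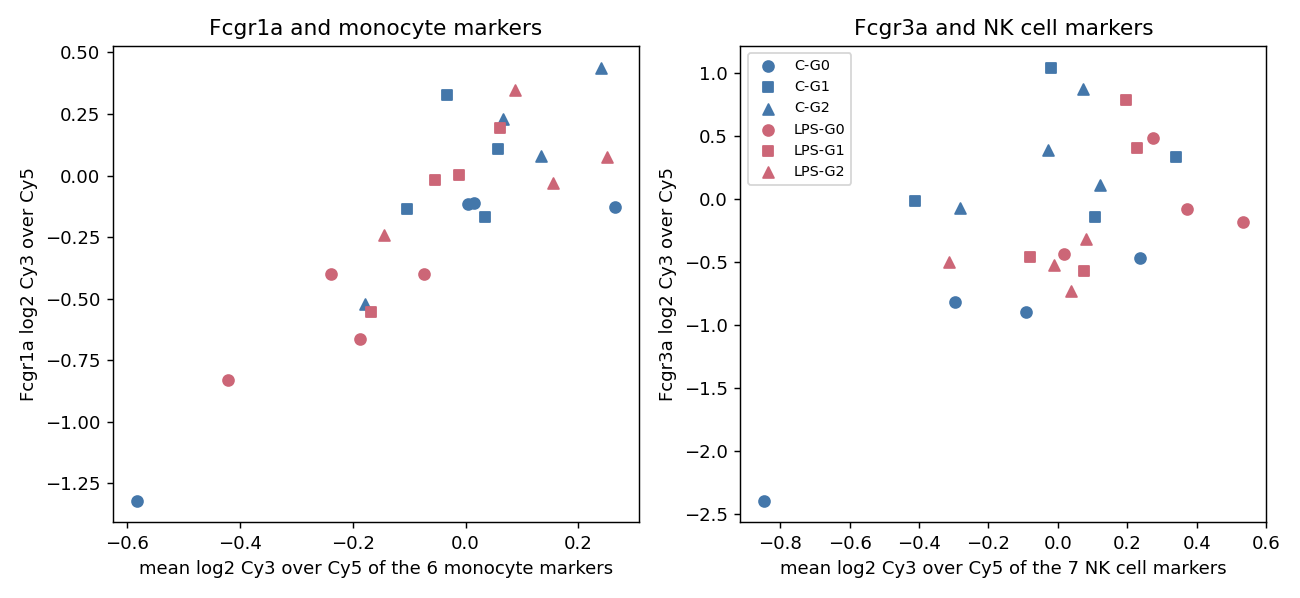
Fcgr1a against the mean log2 ratio of 6 monocyte markers (left) and Fcgr3a against that of 7 NK cell markers (right); points are the 24 arrays, colored by saline or LPS and shaped by diet. Fcgr1a rises along with the monocyte markers (r = 0.85), and the lowest point of both panels is C-G0 replicate 1.

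Genes that act with or below the receptors were read from 3 lists. Of 14 partners and relatives, 6 could be tested over the 24 arrays (Fcrla, Fcrl1, Faim3, Pigr, B2m and Cd247) and none was called in any comparison. B2m, the light chain of the neonatal receptor, differed by -0.13 in LPS-G1 vs LPS-G0 (adjusted p = 0.691 by limma). Of 30 genes of activating signalling, 23 were tested in LPS-G1 vs LPS-G0 and 2 were called, both lower in LPS-G1, a share near the 8.93% of all probes called there. Vav3, a signalling protein that acts below the activation motif, fell by 1.12 on the log2 scale (SE 0.19, adjusted p = 0.0289), and Sos1, an exchange factor for Ras, fell by 0.58 (SE 0.15, adjusted p = 0.0289). The list's median in that comparison was 0.15, with 17 of 23 genes above 0, against a median of 0.06 over all probes. No gene of this list was called in the other 10 comparisons. Of 11 inhibitory phosphatases and adaptors, 6 were tested and none was called. When LPS-G1 and LPS-G2 were each set against LPS-G0, all 6 had differences above 0, with medians of 0.28 and 0.32 against 0.06 and -0.02 over all probes. Lilrb4, an inhibitory receptor of myeloid cells, was among them, with 0.65 (adjusted p = 0.109) and 0.55 (adjusted p = 0.597), and Inpp5d, which encodes SHIP-1, had 0.27 and 0.30. The 5 receptors had medians of 0.12 and 0.27 in these comparisons, which share the LPS-G0 arrays.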

How the data were processed

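Blood RNA of 24 rats was hybridised to Agilent SurePrint G3 Rat arrays in 2 colors, 4 per group. The authors made the files with Agilent Feature Extraction (10.10.1.1 per the file headers, 10.7.3.1 per the labels), which subtracted a spatial background and normalized the dyes by Lowess. As deposited, the processed and mean signals are intensities of each channel, and the ratios are log10 of Cy5 over Cy3. A deposited value table held the same log10 ratios. Per the labels Cy3 is the rat RNA, so the ratio was turned and put on the log2 scale. Control spots and outlier spots (679 to 1133 per array) were left out and spots of a probe were averaged. A probe was tested when 1 group or more had it well above background in Cy3 on each of its 4 arrays (10313 probes over the 16 arrays of the LPS groups and C-G0, 10708 over all 24). limma 3.58.1 in R 4.3.3 was fitted, first over 16 arrays for 4 comparisons and then over 24 arrays for 7, with Benjamini-Hochberg adjustment and a threshold of 0.05, and was tested on simulated data. Exact permutation tests were two-sided over 70 arrangements. Precision is limited by 4 arrays per group. Every probe of the 8 genes is used, and a gene is represented by its brightest one. The nearest genes are the 3 of highest correlation among genes detected on all 24 arrays, leaving out placeholder names. Of listed genes, those called or among the brightest of a list are named, and Inpp5d for its link to Fcgr2b, chosen after its values were seen. The receptors, lists and markers were chosen with earlier results of these data known. Alternatives covered slide and replicate blocks, filter, background correction, Cy3 alone, array weights and variance trend. They also covered each array left out, Tukey's HSD with its pairwise p-values adjusted, and the probe summary.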

Additional observations from a re-analysis of the deposited data

Results flagged for a closer look

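Fcgr1a on C-G0 replicate 1 stood far from its group. Its log2 ratio was -1.32, while the other 3 C-G0 arrays lay at -0.13 to -0.11. This was the only group among the 30 examined (5 receptors in 6 groups of 4 arrays, brightest probe) with a gap of this kind. Chance gives about 1 in 20, or 1.5 of 30, so the count of such gaps was no higher than chance gives. The other Fcgr1a probe had no such gap in C-G0, where its ratios ran from -0.62 to 0.05. The probe specific to Fcgr2b, not among the 30, did have one on C-G0 replicate 1, at -1.36 against 0.00 to 0.15 on the rest of its group. No receptor had an LPS response that differed between diets after adjustment.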

How the results depend on the processing

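No receptor was called in 243 of the 255 counts made under alternative settings, and 12 counts moved from 0. Many of these settings called few of all probes, so a count of 0 says little about the receptors. In LPS-G1 vs LPS-G0, for example, Tukey's HSD with Benjamini-Hochberg adjustment of its pairwise p-values called 0 of 10293 probes. The study's methods name a one-way analysis of variance with Tukey's HSD as the post-hoc test. The overall test of that analysis was not run here, so this count need not be what the study's own procedure gives. At an unadjusted p under 0.05 there was 1 receptor in LPS-G0 vs C-G0, LPS-G2 vs LPS-G0, LPS-G1 vs LPS-G2, C-G1 vs C-G0, LPS-G2 vs C-G2 and both contrasts of LPS responses, and 2 in C-G2 vs C-G0. Array weights called 1 receptor in LPS-G1 vs LPS-G0 (Fcgr1a, 0.49, adjusted p = 0.0474). With the replicate block, which assumes that arrays of the same number belong together, 1 was called in C-G1 vs C-G0 (Fcgr3a, 1.45, adjusted p = 0.0433), while 600 of all probes were called there against 3. The same-numbered arrays had a mean correlation of 0.11 against -0.04 for other numbers, and in none of the 15 pairs of groups were all 4 correlations over 0.1. The replicate block changed no other call. Leaving out 1 array at a time, the number called ranged from 0 to 1 in C-G1 vs C-G0 and from 0 to 2 in C-G2 vs C-G0, and was 0 otherwise: without C-G0 replicate 4 Fcgr3a was called in both (1.56, adjusted p = 0.0213, and 1.58, adjusted p = 0.0318) and Fcer1g in C-G2 vs C-G0 (0.73, adjusted p = 0.0275), while 968 and 355 of all probes were called there against 3 each. None of the 9 differences at an unadjusted p under 0.05 changed sign under any of their alternatives. They were picked by that p in these same data. Where groups do not overlap, leaving out an array cannot turn the sign, so the stable sign is no added evidence. Without LPS-G0 replicates 3 and 4, Fcgr3a in LPS-G0 vs C-G0 was 1.01 (adjusted p = 0.545). Over all probes, the 921 called in LPS-G1 vs LPS-G0 became 336 with the slide as a block, 2851 with array weights and 3 when the model held the 24 arrays. The number was 0 without the filter, with Cy3 alone or by Tukey's HSD. It was also 0 without LPS-G0 replicate 1, LPS-G0 replicate 4, LPS-G1 replicate 4 or the LPS-G0 arrays of conflicting labels, 11 without LPS-G0 replicate 2, and 4 and 2 without LPS-G1 replicates 2 and 3. In LPS-G0 vs C-G0 1 probe was called, against 1106 with array weights and 1136 without C-G0 replicate 1. The mean of both Fcgr1a probes gave 0.38 for LPS-G2 vs LPS-G0 against 0.61 with the brightest. A group size of 4 arrays and signals near background limit what can be said of Fcgrt, Fcer1a and Fcer2.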
